A study of Mus musculus with 18 samples.

Results

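Paraspeckles are nuclear bodies that form on the long noncoding RNA Neat1, and the genes described here encode that RNA and proteins that build or modify the bodies: Pspc1, Sfpq, Nono, Neat1, Rbm14, Hnrnpk and Carm1. Of these 7 genes, chosen by symbol, 5 were measured by a probe set (the group of array probes summarized into 1 value) that names the gene alone, out of 19935 genes measured in this way. No probe set of the platform annotation names Neat1, and the only one for Rbm14 is shared with Gm21992, so no value is given for these 2 genes. Where a gene had several probe sets, the one with the highest mean over all embryos stands for it, a choice that arose only for Hnrnpk with 3 probe sets. Pspc1 was brought forward by its difference between the genotypes in these same embryos, so that difference is described here without a test.

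Gene expression was measured in 18 individual mouse 2-cell embryos on Affymetrix Mouse Gene 1.0 ST arrays, with 1 embryo per array. The 9 wild-type (WT) embryos had wild-type fathers, written WT1, WT2 and WT3, and the 9 Parg(110)-/+ embryos had Parg(110)-/- fathers, written PargA, PargB and PargC, with 3 embryos from each father. All mothers were wild-type mice of the inbred strain 129SVE, and all matings were natural. The study's methods do not name the strain of the Parg(110)-/- fathers. Parg encodes poly(ADP-ribose) glycohydrolase, which cleaves poly(ADP-ribose) chains off proteins, and the mutant allele lacks exons 2 and 3 and with them the long form of the enzyme. The Parg(110)-/+ embryos carry this allele from the father and keep a maternal copy, so the effect of the father's sperm and that of the embryo's own allele cannot be told apart. An embryo is named by its father and its number, as in WT2-2.

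The central proteins of paraspeckles are Pspc1, Sfpq and Nono, which share paired RNA recognition motifs and form dimers with one another, so that a cell can hold several pairings. Sfpq and Nono are needed for the bodies to form, whereas Pspc1 is a constituent that can be spared in cultured cells. Hnrnpk favours the long form of Neat1, on which the bodies assemble, and Rbm14 is needed to hold them together. Carm1 is an arginine methyltransferase that methylates histone H3 and also Nono, and it gathers in paraspeckles in the nuclei of early mouse embryos. Nono and Sfpq are also known for roles in DNA repair, and Nono binds poly(ADP-ribose).

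Log2 values ran from 2.97 to 13.7 over all 28815 probe sets, and array medians lay between 6.34 and 6.49 in WT and between 6.44 and 6.53 in Parg(110)-/+ embryos. A level is relative to the other RNA of the embryo, so a change in the amount of a transcript and a change in the rest of the RNA cannot be told apart. All 12 oocyte and maternal marker genes were measured and 11 of them were bright, that is at or above the median of the probe set means, 6.47. Of 12 markers of the 2-cell stage 5 were measured and 4 were bright, among them Zfp352 at 10.26 in WT and 10.51 in Parg(110)-/+ embryos. The mean level of these 5 markers ran from 7.82 to 9.39 in WT and from 7.62 (PargC-2) to 10.24 (PargB-1) in Parg(110)-/+ embryos. None of 6 blood markers was bright, but 1 of 8 cumulus, granulosa and oviduct markers and 3 of 8 spermatid markers were. These lay not far above 6.47, with Col1a2 at 7.06 in WT and 7.21 in Parg(110)-/+ embryos. In the same order Prm1 stood at 6.59 and 6.77, Tnp2 at 6.61 and 6.73, and Prm2 at 7.13 and 7.20. Of the markers of blood, cumulus and spermatids, 6 of 6, 7 of 8 and 8 of 8 had a higher mean in Parg(110)-/+ embryos, as did 67.1% of all probe sets (48.0% with arrays shifted to equal medians). Most of these markers were not bright, and the share that was higher differed with brightness. It was 5983 of 10264 bright genes, against 13589 of all 19935 genes. The part of these markers in the results was not tested.

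Pspc1 (chromosome 14) lay lower in Parg(110)-/+ than in WT embryos. Its log2 level in the WT embryos, father by father, was 9.66, 10.05 and 10.03 (WT1), 9.97, 10.66 and 9.98 (WT2) and 9.86, 10.01 and 9.80 (WT3). Among the offspring of the mutant fathers the values were 9.34, 9.40 and 9.25 (PargA), 9.51, 9.40 and 9.68 (PargB) and 8.92, 9.45 and 9.74 (PargC). All 9 Parg(110)-/+ embryos lay below the WT mean and 7 of them lay below every WT embryo, while 8 of 9 WT embryos lay above every Parg(110)-/+ embryo. The groups overlapped only through WT1-1, the lowest WT embryo, which PargB-3 and PargC-3 exceeded.

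Pspc1 had a mean log2 level of 10.00 ± 0.28 (SD, n = 9) in WT embryos, against 9.41 ± 0.24 (SD, n = 9) in Parg(110)-/+ embryos. The difference was -0.59 ± 0.12 (SE) with a 95% interval from -0.84 to -0.34, or 0.665 times the WT level. Of all 28815 probe sets, 1.85% had all 9 Parg(110)-/+ embryos below the WT mean and 0.0104% had groups that did not overlap. Pspc1 shared in choosing the genes, so nothing is read from these shares or from the interval, which takes no account of that choice. The difference was -0.51 without WT2-2 and -0.63 without WT1-1, and leaving out a whole father gave values between -0.65 (without PargB) and -0.49 (without WT2). It was -0.65 with arrays shifted to equal medians and -0.56 after a second quantile normalization.

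**Figure D1:**
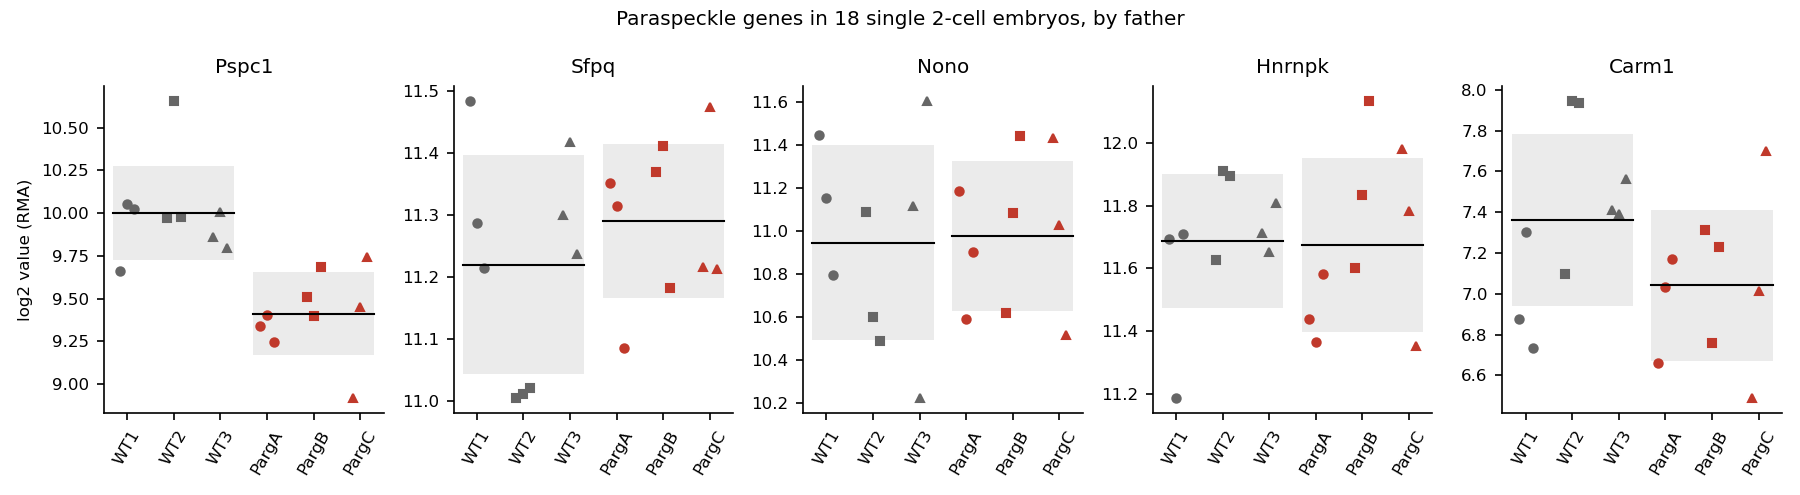
Log2 value (RMA, y axis, a separate scale in each panel) of the 5 measured paraspeckle genes in 18 embryos, by father on the x axis; grey points are WT and red points Parg(110)-/+ embryos, lines are the means of 9 embryos and shaded bands the mean ± 1 SD. Of the Pspc1 values, 8 of 9 in WT lie above all Parg(110)-/+ embryos, whereas the other 4 genes overlap widely between the genotypes.

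Sfpq and Nono, the partners of Pspc1, did not differ between the genotypes beyond the spread of the embryos. At an adjusted p under 0.1, limma's genotype fit called 0 (0%) of the 28815 probe sets, and at an unadjusted p under 0.05 it listed 3018 (10.5%, made up of 1.51% lower and 8.96% higher in Parg(110)-/+ embryos). No probe set, that of Pspc1 included, was thus called. Sfpq, Nono, Hnrnpk and Carm1 were not listed at an unadjusted p under 0.05 either. Sfpq (chromosome 4), a splicing and transcription factor, had a log2 level of 11.22 ± 0.18 (SD, n = 9) in WT embryos, against 11.29 ± 0.12 (SD, n = 9) in Parg(110)-/+ embryos. The difference of 0.07 ± 0.07 (SE, limma adjusted p = 0.722) had a 95% interval from -0.08 to 0.22 and lay between 0.04 and 0.10 when 1 embryo was left out. Nono (chromosome X) measured 10.94 ± 0.46 (SD, n = 9) and 10.98 ± 0.35 (SD, n = 9), a difference of 0.03 ± 0.18 (SE, limma adjusted p = 0.958) with a 95% interval from -0.36 to 0.42. The interval of Sfpq is narrow because its embryos were close to each other, whereas that of Nono leaves room for a difference of over 0.3 in either direction.

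Among WT embryos the log2 levels of Sfpq were 11.48, 11.29 and 11.21 (WT1), 11.00, 11.01 and 11.02 (WT2) and 11.30, 11.42 and 11.24 (WT3). Among the offspring of the mutant fathers the values were 11.35, 11.31 and 11.09 (PargA), 11.37, 11.41 and 11.18 (PargB) and 11.22, 11.47 and 11.21 (PargC). The 3 embryos of WT2 were thus the 3 lowest of all 18 with an SD of 0.009 among them, below every embryo of the other 5 fathers. The share of all probe sets in which a father's embryos stand apart in this way was not counted, so the pattern is only a description. Limma's F test between the 3 WT fathers gave an unadjusted p of 0.0140 for Sfpq and an adjusted p of 1.00 over all probe sets. That test called 1 probe set of 28815 (0.00347%) and listed 4.39% at an unadjusted p under 0.05.

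Among WT embryos the log2 levels of Nono were 11.44, 11.15 and 10.79 (WT1), 11.09, 10.60 and 10.49 (WT2) and 11.11, 10.22 and 11.61 (WT3). Among the offspring of the mutant fathers the values were 11.19, 10.59 and 10.90 (PargA), 10.62, 11.08 and 11.44 (PargB) and 11.43, 11.03 and 10.51 (PargC). The lowest and the highest of all 18 embryos, WT3-2 and WT3-3, had the same father. The genotype difference of Nono was small enough that single embryos turned its sign, from -0.06 without WT3-2 to 0.11 without WT3-3.

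Hnrnpk (chromosome 13), an RNA-binding protein that is essential for paraspeckles, was read by 3 probe sets. For the probe set with the highest mean, log2 levels in WT embryos were 11.19 (lowest, WT1-2), 11.71 (median) and 11.91 (highest, WT2-2). In Parg(110)-/+ embryos they were 11.35 (lowest, PargC-3), 11.60 (median) and 12.13 (highest, PargB-3). The groups overlapped over nearly their whole range, and the 2 highest embryos of all 18 were Parg(110)-/+. The WT mean was 11.69 ± 0.21 (SD, n = 9) and the Parg(110)-/+ mean 11.67 ± 0.28 (SD, n = 9), a difference of -0.01 ± 0.11 (SE, limma adjusted p = 0.974) with a 95% interval from -0.25 to 0.23. The other 2 probe sets differed by -0.01 ± 0.10 and -0.04 ± 0.10 (SE). As a description over 18 embryos, the 3 probe sets of Hnrnpk correlated pairwise at 0.976, 0.897 and 0.833. Near-identical processed copies of Hnrnpk exist in the genome, so which copy each probe set reads is uncertain.

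Carm1 (chromosome 9) lay lower on average in Parg(110)-/+ embryos, but the difference was not larger than the spread of the embryos allows. Its log2 level in the WT embryos, father by father, was 6.87, 7.30 and 6.73 (WT1), 7.09, 7.95 and 7.94 (WT2) and 7.41, 7.39 and 7.56 (WT3). Among the offspring of the mutant fathers the values were 6.66, 7.04 and 7.17 (PargA), 7.31, 6.76 and 7.23 (PargB) and 6.49, 7.01 and 7.70 (PargC). Of the Parg(110)-/+ embryos 8 of 9 lay below the WT mean, but only PargA-1 and PargC-1 lay below every WT embryo, and PargC-3 was above all but WT2-2 and WT2-3. The WT mean was 7.36 ± 0.42 (SD, n = 9) and the Parg(110)-/+ mean 7.04 ± 0.37 (SD, n = 9). The difference of -0.32 ± 0.18 (SE, limma adjusted p = 0.529) had a 95% interval from -0.70 to 0.06, and its adjusted p lay between 0.368 and 0.807 under all settings tried. It moved to -0.17 without the embryos of WT2 and to -0.52 without those of WT1.

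**Figure D2:**
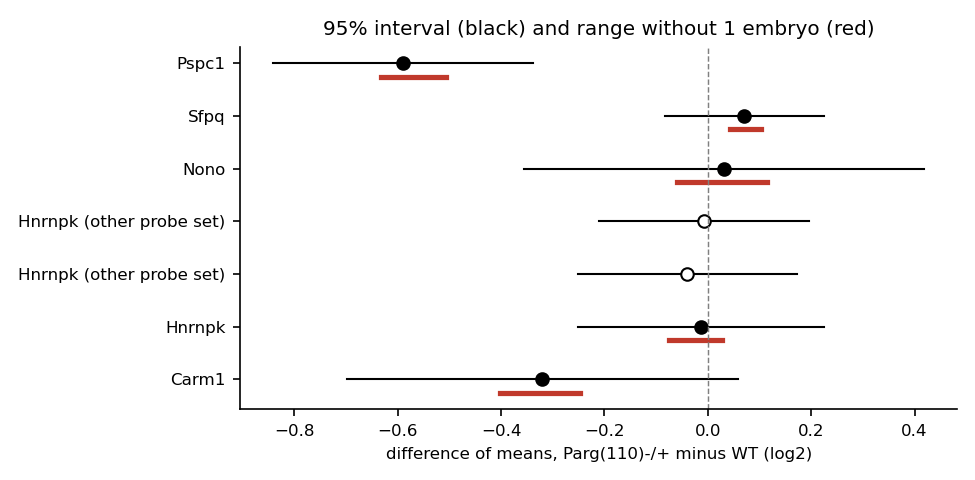
Difference of mean log2 values between 9 Parg(110)-/+ and 9 WT embryos (x axis) for each probe set of the 5 genes (y axis), with black bars for the 95% interval and red bars for the range when 1 embryo was left out; open circles are the other probe sets of Hnrnpk. The intervals of Sfpq, Nono, Hnrnpk and Carm1 include 0. That of Pspc1, from -0.84 to -0.34, is a description and not a test. It takes no account of the choice of this gene by the same difference.

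Within a genotype the 5 genes varied by different amounts. The SD of log2 values within genotypes was 0.153 for Sfpq, 0.246 for Hnrnpk, 0.261 for Pspc1, 0.396 for Carm1 and 0.406 for Nono. The median over the 14408 bright probe sets was 0.323, so Sfpq, Hnrnpk and Pspc1 varied less than a typical bright probe set, and Carm1 and Nono more. Sfpq stood at the 18.6 percentile of these probe sets, Pspc1 at the 41.6 and Nono at the 60.4 percentile. The SD of Parg(110)-/+ embryos was 0.705 times that of WT embryos for Sfpq, 0.770 times for Nono, 0.876 times for Carm1, 0.878 times for Pspc1 and 1.29 times for Hnrnpk, and these ratios were not tested.

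The levels were also ordered by father, across both genotypes as a description and then tested within each genotype. For Pspc1 the means of 3 embryos were 9.33 (PargA), 9.37 (PargC), 9.53 (PargB), 9.89 (WT3), 9.91 (WT1) and 10.20 (WT2). In this order the gaps of 0.36 between PargB and WT3 and of 0.29 between WT1 and WT2 were larger than the SD within fathers, 0.264, and the other neighbours did not differ beyond it. All 3 Parg(110)-/- fathers stood below all 3 WT fathers, which restates the genotype difference that chose Pspc1. The share of all probe sets with such an order was not counted, and nothing is read from it. For Carm1 the means rose from 6.95 (PargA) and 6.97 (WT1) over 7.07 (PargC), 7.10 (PargB) and 7.45 (WT3) to 7.66 (WT2). No neighbours in that order differed by more than the SD within fathers, nor did any for Nono or Hnrnpk, and for Sfpq only the gap of 0.24 between WT2 and PargA did.

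Within a genotype, which leaves the genotype contrast aside, limma's F test called none of the 5 genes between the fathers. The adjusted p was 1.00 for all 5 genes within WT, where Carm1 had an unadjusted p of 0.0909, and lay between 0.943 and 1.00 within Parg(110)-/+. Within Parg(110)-/+ the test called 3 probe sets of 28815 (0.0104%) and listed 5.34% at an unadjusted p under 0.05. For 1 of the other probe sets of Hnrnpk the means of PargA, PargB and PargC were 10.95, 11.34 and 11.33 (unadjusted p = 0.0240, adjusted p = 0.920, limma).

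Set singly against the WT embryos, none of the 9 Parg(110)-/+ embryos was called by limma for Sfpq, Nono, Hnrnpk or Carm1. Summed over embryos the comparison called 0.865% of all tests, from 0.604% in PargA-3 to 2.17% in PargB-1, and 0.731% when a WT embryo was compared with the remaining 8. The largest departures were -0.87 ± 0.41 (SE) for Carm1 in PargC-1, 0.44 ± 0.22 for Hnrnpk in PargB-3 and 0.50 ± 0.44 for Nono in PargB-3, with adjusted p of 0.609, 0.588 and 0.865 (limma). For Pspc1, given without a test, the Parg(110)-/+ embryo farthest from WT was PargC-1, at -1.08 ± 0.28 (SE) from the WT mean. Among WT embryos WT2-2 lay 0.74 ± 0.15 (SE, limma adjusted p = 0.125) above the other 8 for Pspc1, and WT1-2 lay 0.56 below the others for Hnrnpk (a difference of -0.56 ± 0.13, SE, limma adjusted p = 0.209).

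Of the 10 pairs of measured genes, Pspc1 and Carm1 had the strongest relation between embryos. WT2-2 was the highest of all 18 embryos for both genes and PargC-1 the lowest for both. With each genotype's mean subtracted, which removes the genotype difference, Pearson's r of Pspc1 and Carm1 was 0.640 over 18 embryos (permutation p = 0.00473, adjusted p = 0.0473 over the 10 pairs). Spearman's rho was 0.467 (permutation p = 0.0576, adjusted p = 0.288). Pearson's r was 0.512 in the 9 WT embryos alone and 0.806 in the 9 Parg(110)-/+ embryos alone. Without WT2-2 and PargC-1, the 2 embryos farthest from the median of Pspc1, r was 0.457 (n = 16, permutation p = 0.0627, adjusted p = 0.289), so the call rests on these 2 embryos. With each father's mean subtracted instead, r was 0.638 (permutation, adjusted p = 0.0618).

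Over all 18 embryos, none of the other 9 pairs passed at an adjusted p under 0.1. The next strongest were both with Nono, and both were negative. Pspc1 and Nono gave r = -0.492 (rho = -0.494, permutation p = 0.0437 for r and 0.0413 for rho, adjusted p = 0.191 and 0.288). Nono and Carm1 gave r = -0.478 (rho = -0.420, permutation p = 0.0574 for r and 0.0946 for rho, adjusted p = 0.191 and 0.315). For this pair r was -0.659 without WT3-2 and WT3-3 (n = 16, permutation p = 0.00855, adjusted p = 0.0855), so it passed once these 2 embryos were left out. Between the dimer partners, r was -0.315 for Pspc1 and Sfpq (rho = -0.125) and 0.126 for Sfpq and Nono (rho = 0.104), with permutation adjusted p of 0.428 and 0.802 for r. Nono and Hnrnpk gave r = 0.282 over all embryos (permutation, adjusted p = 0.428), with 0.812 in the Parg(110)-/+ and -0.227 in the WT embryos, a contrast that was not tested.

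**Figure D3:**
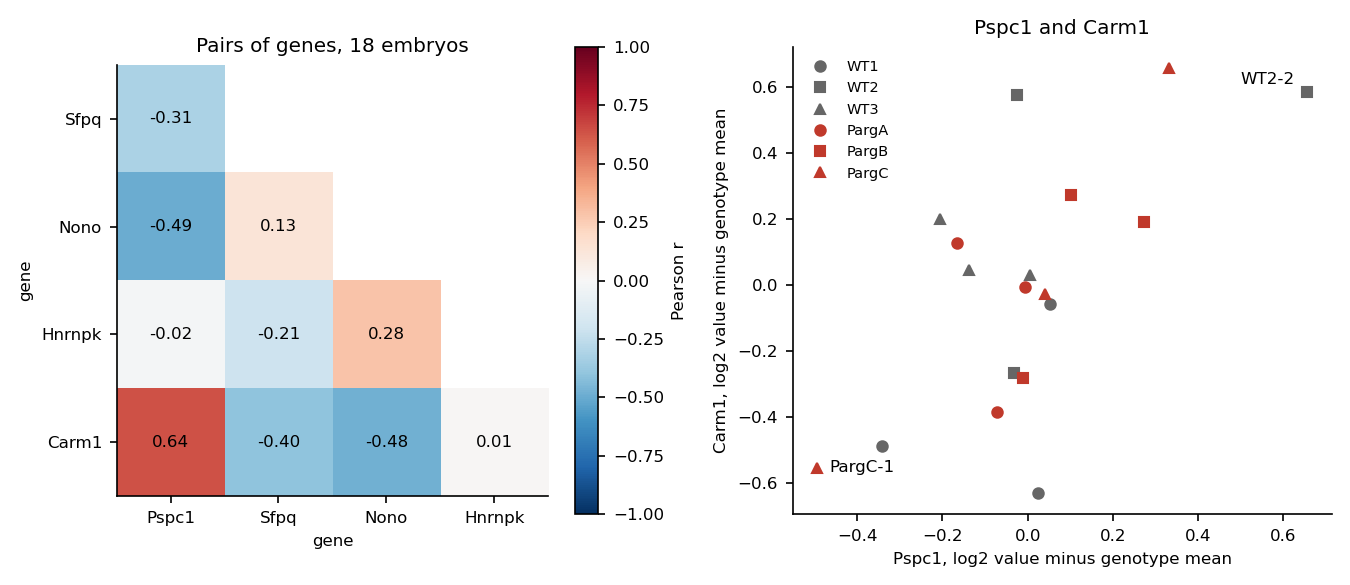
Left, Pearson's r between pairs of paraspeckle genes (both axes) over 18 embryos, from log2 values with each genotype's mean subtracted; right, Pspc1 (x axis) and Carm1 (y axis) in each embryo on that scale, grey for WT and red for Parg(110)-/+, with a symbol for each father. The r of Pspc1 and Carm1 is 0.640, and the labelled embryos WT2-2 and PargC-1 lie at opposite ends.

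The genes whose pattern was most like that of a paraspeckle gene were taken by Pearson's r over 18 embryos among 10263 bright genes, with each genotype's mean subtracted, and are given as a description. Taking the highest of so many r over 18 embryos gives high values by itself, so nothing is read from their size. For Pspc1 they were Tnks1bp1 (r = 0.814), which binds tankyrase, an ADP-ribosylating enzyme, Patj (0.784), a cell polarity protein, and Srsf3 (0.750), a splicing factor. For Carm1 they were the zinc finger transcription factor Insm1 (r = 0.802), the microtubule-associated Map4 (0.789) and the formaldehyde-oxidizing Adh5 (0.767). For Nono they were Tbrg1 (r = 0.806), Ptpa (0.794), an activator of a protein phosphatase, and Mrpl34 (0.747), a mitochondrial ribosomal protein. For Sfpq they were the aminopeptidase Xpnpep3 (r = 0.743), Nhp2 (0.711), a protein of small nucleolar ribonucleoproteins, and Cdca2 (0.696), which binds a protein phosphatase on mitotic chromosomes. None of the 12 genes named for these 4 genes was itself one of the 5 measured here.

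The wider set of paraspeckle proteins held no called gene and was split in direction. Of 8 proteins essential for the bodies 5 were measured, 3 higher and 2 lower in Parg(110)-/+ embryos (0 called), with a median difference of 0.03. Of 38 other paraspeckle proteins 36 were measured, 21 higher and 15 lower (0 called), with a median of 0.04. Leaving out the genes described above, 37 measured paraspeckle proteins remained, of which 22 were higher and 15 (40.5%) lower, with a median of 0.04. For comparison, 41.7% of all bright genes were lower, with a median difference of 0.04, and 31.8% of all genes were lower, with a median of 0.05. At an unadjusted p under 0.05, 3 of these 37 genes (32 of them bright) were listed as higher and 2, Smarca4 and Cpsf6, as lower. The same counts were 786 higher and 322 lower of 10264 bright genes, and 1833 higher and 363 lower of all 19935 genes.

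Among the essential proteins, Smarca4, the ATPase of a chromatin remodelling complex, measured from 9.90 to 10.67 (median 10.19) in WT and from 9.37 to 10.38 (median 9.98) in Parg(110)-/+ embryos. In 8 of 9 Parg(110)-/+ embryos it stood under the WT mean, lowest in PargB-1, with a difference of -0.32 ± 0.13 (SE, limma adjusted p = 0.447). Genes were named from each list by the smallest p in the genotype fit, so such counts of embryos follow in part from that choice, here and below. Their share over all probe sets was counted only for all 9 embryos on the same side of the WT mean. Smarca4 lies close to Carm1 on chromosome 9, with 5 annotated genes between them, and the r of the pair over 18 embryos, as a description, was 0.268. Dazap1, an RNA-binding protein, differed by 0.18 ± 0.16 (SE, limma adjusted p = 0.681), or 0.10 without PargC-3.

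Among the other proteins, Ss18l1, a subunit of a neuronal chromatin remodelling complex, measured from 7.55 to 8.98 (median 8.44) in WT and from 8.75 to 9.40 (median 8.95) in Parg(110)-/+ embryos. All 9 Parg(110)-/+ embryos lay above the WT mean, which held for 4.33% of all probe sets, and 4 lay above every WT embryo. The difference was 0.57 ± 0.15 (SE, limma adjusted p = 0.362). Cpsf6, a pre-mRNA cleavage factor, measured from 10.27 to 11.12 (median 10.80) in WT and from 9.63 to 10.89 (median 10.43) in Parg(110)-/+ embryos, and 8 of 9 of these lay below the WT mean (a difference of -0.38 ± 0.14, SE, limma adjusted p = 0.404). The homeobox factor Dlx3 differed by 0.24 ± 0.07 and the transcription factor Runx3 by 0.19 ± 0.08 (SE, limma adjusted p = 0.362 and 0.433), above the WT mean in 8 and 7 of 9 Parg(110)-/+ embryos. Runx3 was not bright. With arrays shifted to equal medians the differences were smaller, 0.18 for Dlx3 and 0.14 for Runx3.

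Carm1 belongs to the protein arginine methyltransferases, and of its 8 relatives only Prmt1 and Prmt5 also had a lower mean in Parg(110)-/+ embryos. Of all 9 genes 6 were higher and 3 lower in Parg(110)-/+ embryos (0 called), with a median difference of 0.04. With arrays shifted to equal medians 4 were higher and 5 lower. Prmt1, the main asymmetric arginine methyltransferase, measured from 9.40 to 10.98 (median 10.34) in WT and from 8.88 to 10.65 (median 10.06) in Parg(110)-/+ embryos. The means of Prmt1 differed by -0.58 ± 0.27 (SE, limma adjusted p = 0.465), 4 Parg(110)-/+ embryos lay below every WT embryo and the other 5 overlapped with WT. Prmt2 differed in the opposite direction, by 0.46 ± 0.21 (SE, limma adjusted p = 0.465), with 8 of 9 Parg(110)-/+ embryos above the WT mean. Prmt9 and Prmt7 differed by 0.34 ± 0.24 and 0.08 ± 0.08 (SE, limma adjusted p = 0.613 and 0.726), and both were dim. Prmt9 moved to 0.16 without PargA-3 and Prmt7 to 0.016 without PargC-3.

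**Figure D4:**
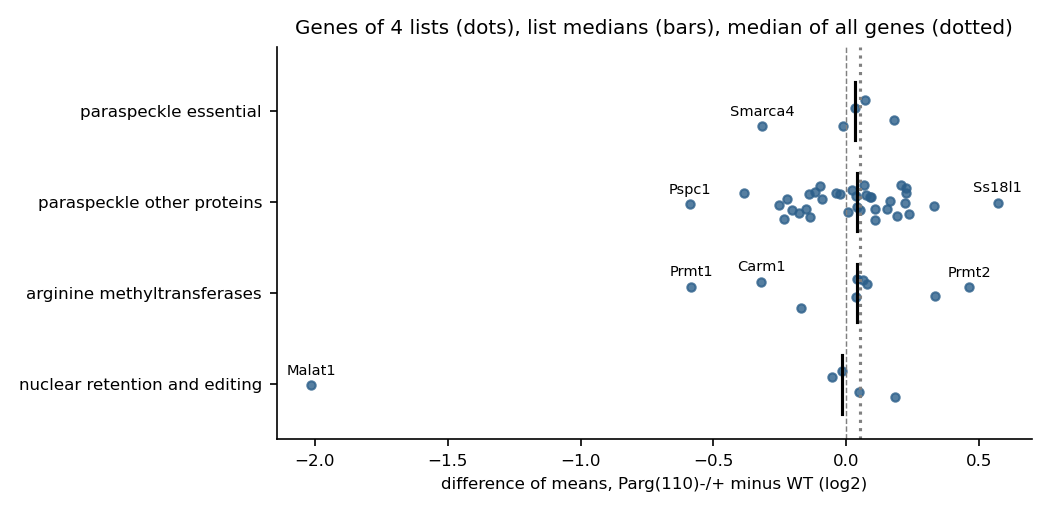
Difference of mean log2 values between Parg(110)-/+ and WT embryos (x axis) for each measured gene of 4 lists (dots, rows on the y axis), with a bar at each list's median and a dotted line at the median of all genes, 0.05. Pspc1, Prmt1 and Ss18l1 lie farthest from 0 among the protein genes, on both sides, and Malat1 lies at -2.01.

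Paraspeckles are known to hold edited RNAs in the nucleus, and the RNAs and enzymes of this function formed the last list. Of 6 genes 5 were measured, 2 higher and 3 lower in Parg(110)-/+ embryos (0 called). Malat1 is the long noncoding RNA of nuclear speckles, and its gene lies beside that of Neat1 on chromosome 19, with 1 annotated gene between them. Its log2 level in the WT embryos, father by father, was 11.19, 10.83 and 11.95 (WT1), 11.41, 9.22 and 11.01 (WT2) and 11.52, 11.36 and 11.11 (WT3). Among the offspring of the mutant fathers the values were 11.48, 8.21 and 10.53 (PargA), 10.00, 7.20 and 4.72 (PargB) and 9.31, 10.85 and 9.18 (PargC). Thus 8 of 9 WT embryos lay between 10.83 and 11.95, whereas the Parg(110)-/+ embryos were spread from PargA-1, above most WT embryos, down to PargB-3, which was dim.

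Malat1 had a mean log2 level of 11.07 ± 0.76 (SD, n = 9) in WT embryos, against 9.05 ± 2.10 (SD, n = 9) in Parg(110)-/+ embryos. The difference of -2.01 ± 0.71 (SE, limma adjusted p = 0.386) had a 95% interval from -3.51 to -0.52 and moved to -1.47 without PargB-3. PargB-3 also had the lowest mean level of the 12 oocyte markers, 9.95, while the other embryos reached up to 10.79. It also had the highest mean level of the 8 cumulus, granulosa and oviduct markers, 6.14, and the lowest of the 9 arginine methyltransferases, 7.23. The part of these in its low Malat1 level was not tested. The editing enzymes Adar, Adarb1 and Adarb2 differed by 0.18 ± 0.27, -0.05 ± 0.08 and 0.05 ± 0.08 (SE). Single embryos decided these values: Adar turned to -0.024 without PargC-3, Adarb1 moved to -0.0063 without WT1-2 and Adarb2 to 0.0056 without WT2-3. Slc7a2, whose gene gives rise to the edited nuclear RNA first tied to paraspeckles, differed by -0.02 ± 0.06 and turned to 0.010 without WT1-3. For these 4 genes limma gave an adjusted p from 0.808 to 0.934.

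**Figure D5:**
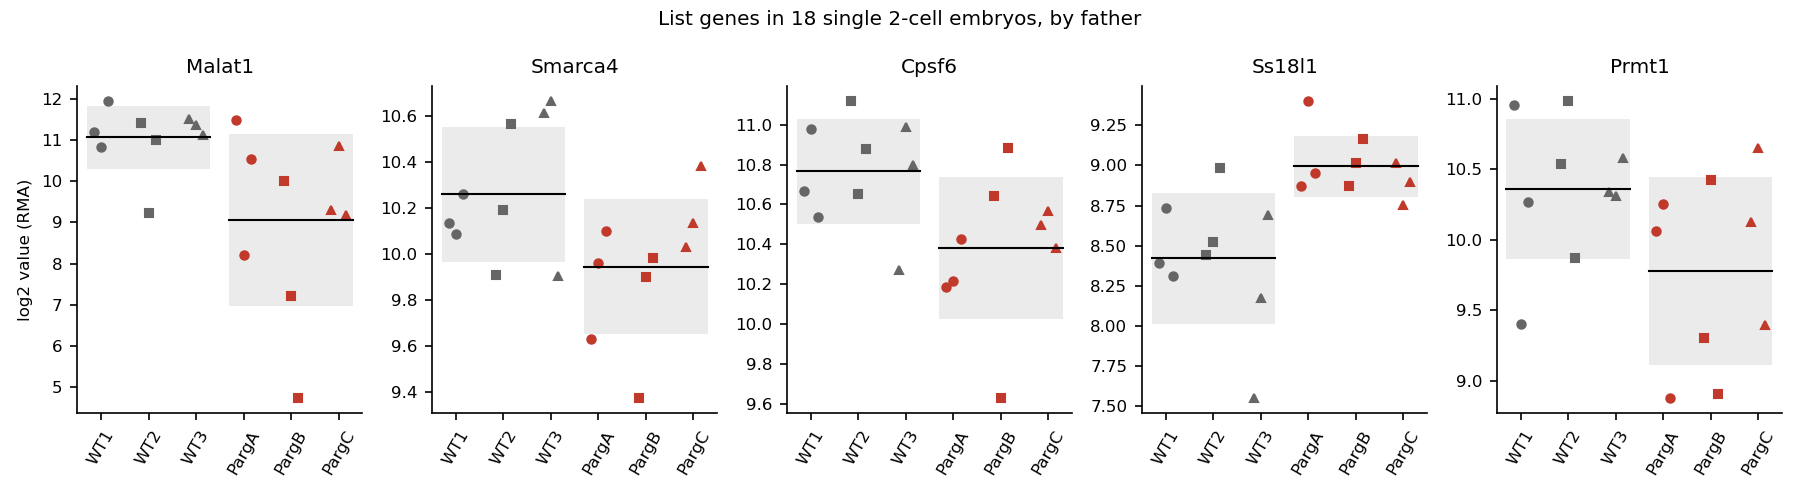
Log2 value (RMA, y axis, a separate scale in each panel) of 5 list genes in 18 embryos, by father on the x axis; grey points are WT and red points Parg(110)-/+ embryos, lines are the means of 9 embryos and shaded bands the mean ± 1 SD. The SD of Malat1 is 0.76 in WT and 2.10 in Parg(110)-/+ embryos, and the values of each gene overlap between the genotypes.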

How the data were processed

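Each embryo's RNA was amplified (NuGen WT-Ovation One-Direct) and hybridized to its own array. Expression was deposited on the log2 scale, as RMA output of Partek (background correction, quantile normalization and summarization into probe sets); versions and genome build are not given in the sources used here. Quantile normalization can reduce a change shared by most genes, and RMA compresses differences of dim probe sets. Array number limits the precision.

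All 28815 probe sets were tested with limma 3.58.1 in R 4.3.3 (lmFit, eBayes, two-sided, Benjamini-Hochberg over all probe sets, calls at an adjusted p under 0.1 after the study's methods): genotypes (9 against 9), fathers within a genotype (F test, 1 spread for 6 fathers) and single embryos against WT, where the lone embryo is assumed to vary like WT embryos. P-values treat embryos as replicates, although genotype belongs to 3 fathers each; the consensus correlation within fathers was -0.023. Genes were named from the 21780 probe sets whose platform annotation gives 1 gene, symbols checked against RefSeq for GRCm38.p6. Correlations used genotype-centred values and 100000 permutations within genotypes. The members, gene lists and tests were chosen with earlier results of these data known. Besides the members, the text names per list the 5 genes with the smallest p in the genotype fit (members included), and the 3 genes most like Pspc1, Sfpq, Nono and Carm1. The scripts were tested on simulated data. Alternatives were other scalings, a dim filter, other uses of the father, an unmoderated one-way test, other probe sets, other centring, and leaving out each embryo or father.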

Additional observations from a re-analysis of the deposited data

Results flagged for a closer look

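For each of 20 genes named above and each genotype (40 groups of 9 embryos), the embryo at either end was marked where its gap to the nearest other embryo was large against the range of its group. Chance marks about 1 in 20 groups, and 6 were marked here. The log2 level of Pspc1 in WT2-2 was 10.66, with the next WT embryo at 10.05, and that of Hnrnpk in WT1-2 was 11.19, with the next at 11.63. Malat1 in WT2-2 was 9.22, where the next WT embryo had 10.83. Among Parg(110)-/+ embryos, Prmt2 was 7.35 in PargB-3 (next 8.05), Prmt7 was 6.92 in PargC-3 (next 6.52) and Adar was 9.74 in PargC-3 (next 8.38).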

How the results depend on the processing

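Carm1 kept a lower mean in Parg(110)-/+ embryos under every alternative run. So did Pspc1, but this difference in the same embryos chose that gene, so nothing is read from its kept sign. The sign for Sfpq turned to -0.033 without WT2. That for Nono turned to -0.024 with equal array medians, -0.078 without WT2 and -0.0032 without PargB (without 1 embryo from -0.059 to 0.114), and that for Hnrnpk to 0.048 without WT2, 0.0049 without WT3 and 0.093 without PargA (without 1 embryo from -0.076 to 0.027). Probe sets called between the genotypes numbered 0 to 1 without 1 embryo (1 without WT1-3 or PargB-1) and 3 without WT1. At an unadjusted p under 0.05 there were 1792 with equal medians (823 higher) and 1820 after a second quantile normalization (1229 higher), against 3018 (2583 higher). The number of single Parg(110)-/+ embryos called against WT for Pspc1 changed only when WT2-2 was left out. Nothing is read from this, because the genotype difference chose the gene. Correlations that turned were Pspc1 and Hnrnpk (0.034 after a second quantile normalization, 0.011 uncentred, 0.182 in WT), Sfpq and Nono (-0.157 centred on fathers, -0.102 in Parg(110)-/+), Hnrnpk and Carm1 (-0.363 centred on fathers, -0.084 without 2 embryos, -0.344 in Parg(110)-/+), Pspc1 and Sfpq (0.104 in Parg(110)-/+) and Nono and Hnrnpk (-0.227 in WT). Essential proteins lower in Parg(110)-/+ numbered 1 to 3 of 5 without 1 embryo (1 without WT3-3, PargA-1, PargA-2 or PargC-3), and arginine methyltransferases lower numbered 5 of 9 with equal medians. The other paraspeckle proteins had 20 of 36 lower with equal medians and 18 after a second quantile normalization, so their split follows the scaling. The cause of these changes was not tested. No paired analysis was possible because embryo numbers only name embryos and each father belongs to 1 genotype; 9 embryos and 3 fathers a genotype limit what can be seen.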
